A study of Mus musculus with 45 samples.

Results

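Nfe2l2, which encodes the transcription factor Nrf2, and 9 genes of the antioxidant response were followed in the mouse hippocampus. The members were chosen by gene symbol, and all 10 (Nfe2l2, Hmox1, Nqo1, Gclc, Gclm, Gsr, Txnrd1, Srxn1, Prdx1 and Prdx6) were found among the 15897 genes of the deposited table. The table holds 45 female mice on the C57Bl/6J background, each a separate animal, in 8 groups of genotype by diet. A+ mice carried the APPswe/PS1dE9 transgene under the mouse PrP promoter and T+ mice carried human tau P301L under the CaMKII promoter, while Aw and Tw mark mice without the respective transgene, so that AwTw were wild-type littermates and A+T+ carried both. All mice were killed at 13 months of age. From 7 months on they received either a standard diet (STD, 5% fat, 0% cholesterol) or a typical Western diet (TWD, 21% fat, 0.15% cholesterol and 35% sucrose by weight). On STD there were 4 A+T+, 5 A+Tw, 6 AwT+ and 6 AwTw mice, and on TWD there were 6 mice of each genotype.

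In resting cells the adaptor Keap1 holds Nrf2 for degradation. Oxidants and electrophiles modify Keap1, and Nrf2 then accumulates, pairs with small Maf proteins and binds antioxidant response elements near genes for heme breakdown, quinone reduction, glutathione synthesis and thiol peroxidases. In brain this programme is known mainly from glia, and because Nrf2 is controlled through protein stability, the mRNA of Nfe2l2 does not report Nrf2 activity by itself.

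The genes lie on 7 chromosomes in GRCm38 (GENCODE M21): Nfe2l2 at chr2:75675513-75704641, Hmox1 at chr8:75093621-75100589, Nqo1 at chr8:107388225-107403206, Gclc at chr9:77754535-77794485, Gclm at chr3:122245557-122270732, Gsr at chr8:33652523-33698163, Txnrd1 at chr10:82833951-82897712, Srxn1 at chr2:152105516-152111376, Prdx1 at chr4:116685544-116700822 and Prdx6 at chr1:161240112-161251219. Gclm overlaps Gm17494, a transcript of the opposite strand that is also in the table, and Prdx6 has the copies Prdx6b and Prdx6-ps2, so reads of these 2 members could in part be shared. The library was stranded. Promoter windows of 300 bases (250 before and 50 after the start, RefSeq, GRCm38.p6) were at hand for 6 members, with 8 windows in all. The core of the antioxidant response element, TGACNNNGC on either strand, was found in 5 of these 6 members and in 5 of the 8 windows, while 12.4% of all 32851 windows held it. The Nqo1 window had no match, and Hmox1, Gclc, Gsr and Prdx6 had no entry. The 4 matches that overlap no annotated exon are shown because this element is the one that Nrf2 is known to bind. Each stretch runs 5′ to 3′ on the strand of the gene, with the match in capitals. The Nfe2l2 match reads as the motif is written and begins at position -240 from the start, and the others read as its reverse complement, GCNNNGTCA, and begin at -134 (Gclm), -92 (Txnrd1, from a start that lies inside the gene) and -133 (Prdx1). The Prdx1 match overlaps an AP-1 site, which reads TGAGTCA on the printed strand.
Nfe2l2 (chr2:75704865-75704913, minus strand): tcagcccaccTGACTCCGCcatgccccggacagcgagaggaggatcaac
Gclm (chr3:122245393-122245461, plus strand): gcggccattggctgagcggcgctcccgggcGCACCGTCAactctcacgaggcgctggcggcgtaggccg
Txnrd1 (chr10:82859084-82859152, plus strand): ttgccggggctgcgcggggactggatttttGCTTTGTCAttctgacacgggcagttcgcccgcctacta
Prdx1 (chr4:116685436-116685504, plus strand): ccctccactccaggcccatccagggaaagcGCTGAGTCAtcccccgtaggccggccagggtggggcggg
These are matches of letters only, and no binding was measured.

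Values are given as deposited, on a log2-like scale after variance-stabilizing transformation and removal of batch. A difference of 1 is about a doubling for well expressed genes and more than a doubling for rare ones. Depth per mouse is unknown. Members are not compared with each other, since the values are not per length. Mice came from batch 0 (20 mice) or batch 1 (25 mice), and every group had mice of both. The mean of 10 neuronal markers lay between 12.24 and 13.00 in every mouse. As a check of genotype, App was higher by 0.90 (SE 0.049) and Prnp by 1.11 (SE 0.045) in A+ than in Aw mice, whereas Mapt differed by 0.06 (SE 0.055, adjusted p = 1.00) between T+ and Tw mice, so the table does not check the tau label. The mean level of 10 choroid plexus markers fell into 2 clusters, 17 mice between 5.76 and 7.33 and 28 mice between 8.34 and 10.33, and in such bulk samples fewer cells of a type cannot be told apart from less RNA per cell.

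Among the members the group means spanned narrow ranges. Txnrd1 (thioredoxin reductase) varied least, from 9.58 in A+Tw/TWD to 9.68 in A+Tw/STD. Gsr (glutathione reductase) ranged from 8.29 in AwTw/STD to 8.47 in AwT+/TWD, and Srxn1 (sulfiredoxin, which restores overoxidized peroxiredoxins) from 10.08 in AwTw/STD to 10.28 in AwTw/TWD. Prdx1 varied most, from 9.90 in AwTw/TWD to 10.63 in AwTw/STD, with SDs between 0.29 and 0.62 within a group. The SDs of the other members lay between 0.05 (Prdx6 in AwT+/STD) and 0.47 (Nqo1 in A+Tw/TWD). The means of Nfe2l2 were 8.31 in AwTw/STD, 8.26 in AwT+/STD, 8.43 in A+Tw/STD and 8.55 in A+T+/STD, and 8.17, 8.24, 8.27 and 8.39 in the same genotypes on TWD, with SDs from 0.12 to 0.33, so on either diet A+T+ stood highest by less than the spread of mice. In the same order, Gclm means were 9.06, 9.21, 9.10 and 9.02 with the standard diet and 8.90, 8.92, 8.79 and 9.06 with the Western diet, with single mice from 8.31 to 9.47.

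**Figure D1:**
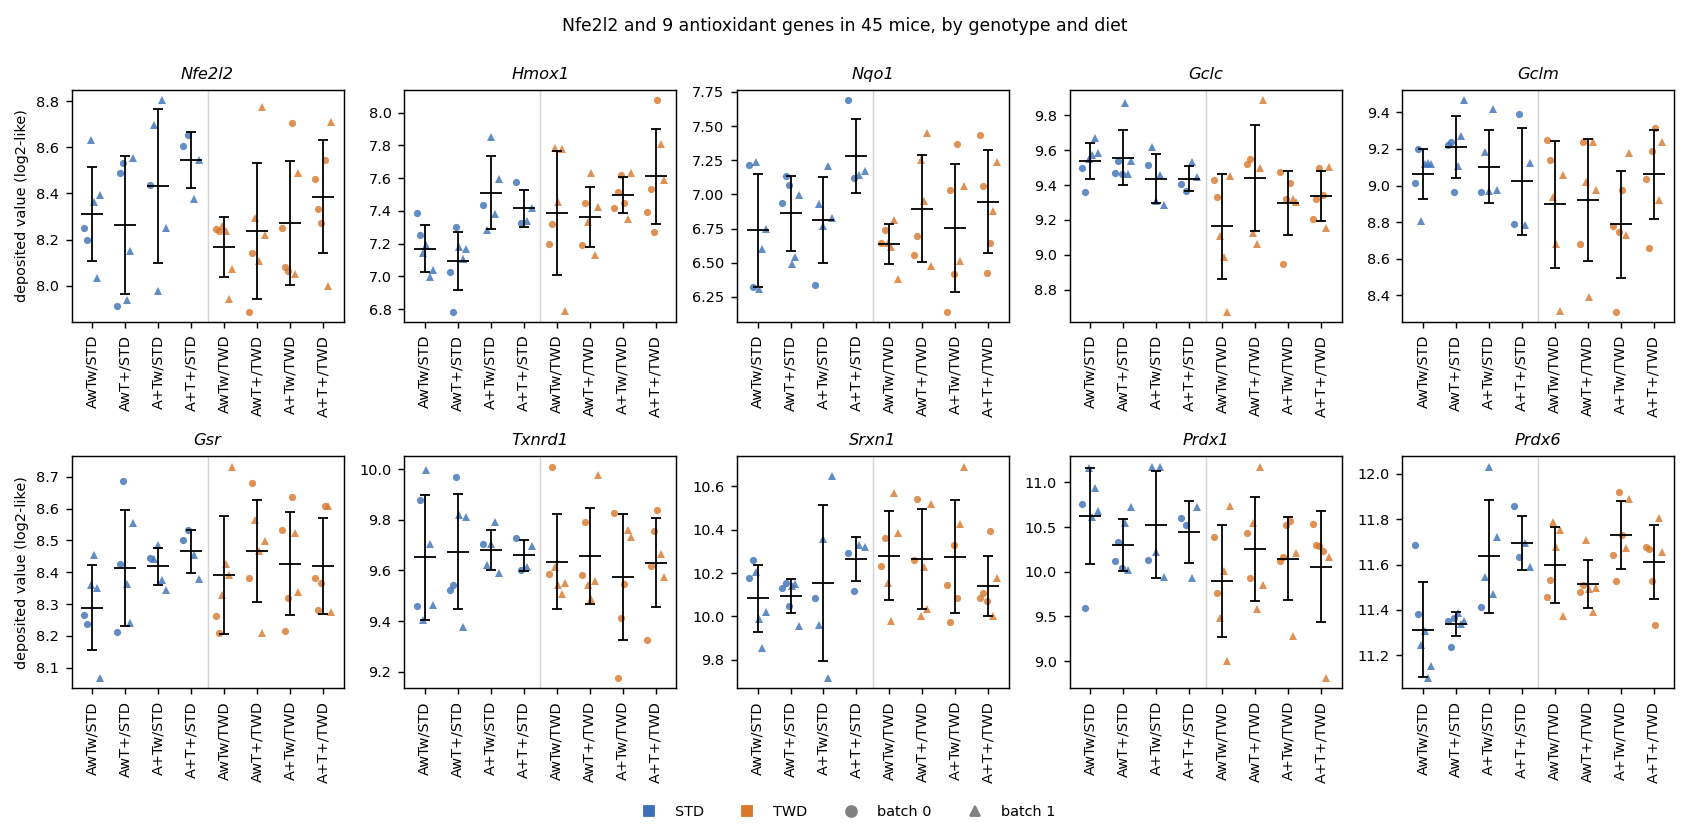
Deposited log2-like values (y axis, a separate scale per gene) of the 10 members in 45 mice of 8 genotype-by-diet groups (x axis). Points are mice, colour is diet, circles are batch 0 and triangles batch 1, and black bars give mean and SD. Hmox1 and Prdx6 have their lowest means in AwTw/STD and AwT+/STD, as listed in the text.

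The first question was whether the members differ between mice with and without the APP/PS1 transgene. Averaged over tau and diet, 2 of 10 members rose in A+ mice and none fell, against 3.77% of all genes called and 3.11% called higher: Hmox1, the inducible heme oxygenase that opens the heme ring, and Prdx6, a peroxiredoxin that also reduces phospholipid hydroperoxides. The median difference over the 10 members was 0.04, against -0.02 over all genes.

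Hmox1 ran from 7.27 to 8.08 with a median of 7.45 in the 21 A+ mice, and from 6.79 to 7.78 with a median of 7.20 in the 24 Aw mice. All 21 A+ mice lay above the Aw median and 3 lay above every Aw mouse, so the groups overlapped. On STD the 4 A+T+ mice had 7.34, 7.57, 7.33 and 7.42 and the 5 A+Tw mice had 7.28, 7.85, 7.38, 7.43 and 7.59. The AwTw/STD mice ran from 7.00 over a median of 7.17 to 7.39, and the AwT+/STD mice from 6.79 over 7.14 to 7.30. On STD the mice with and without the transgene thus overlapped between 7.28 and 7.39. On TWD the lowest, median and highest values were 7.27, 7.56 and 8.08 for A+T+, 7.35, 7.48 and 7.63 for A+Tw, 7.13, 7.38 and 7.63 for AwT+, and 6.79, 7.39 and 7.78 for AwTw. The order of group means was AwT+/STD 7.09, AwTw/STD 7.17, AwT+/TWD 7.36, AwTw/TWD 7.39, A+T+/STD 7.42, A+Tw/TWD 7.5, A+Tw/STD 7.51 and A+T+/TWD 7.61. Of these neighbours only AwTw/STD and AwT+/TWD stood further apart than the SD of either group. The difference between A+ and Aw mice was 0.26 (SE 0.070, 1.20-fold, limma adjusted p = 0.0208).

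Prdx6 ran from 11.33 to 12.03 with a median of 11.67 in A+ mice and from 11.10 to 11.79 with a median of 11.39 in Aw mice. Of the 21 A+ mice 20 lay above the Aw median and 5 above every Aw mouse. The A+T+/STD mice had 11.70, 11.86, 11.63 and 11.59, and the A+Tw/STD mice 11.54, 12.03, 11.47, 11.41 and 11.72. The AwTw/STD mice ran from 11.10 over a median of 11.28 to 11.69 and the AwT+/STD mice from 11.24 over 11.35 to 11.39. Every A+ mouse on STD thus exceeded every AwT+/STD mouse, but 1 AwTw/STD mouse reached into the A+ range. On TWD the lowest, median and highest values were 11.33, 11.66 and 11.81 for A+T+, 11.53, 11.70 and 11.92 for A+Tw, 11.39, 11.50 and 11.71 for AwT+, and 11.37, 11.60 and 11.79 for AwTw. The order of group means was AwTw/STD 11.31, AwT+/STD 11.34, AwT+/TWD 11.51, AwTw/TWD 11.60, A+T+/TWD 11.61, A+Tw/STD 11.64, A+T+/STD 11.69 and A+Tw/TWD 11.73, in which only the step from AwT+/STD to AwT+/TWD was larger than the SDs of its groups. The difference was 0.23 (SE 0.051, 1.17-fold, limma adjusted p = 0.0027).

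The remaining members did not pass. Nfe2l2 itself differed by 0.17 (SE 0.077, unadjusted p = 0.0375, adjusted p = 0.294), with 16 of 21 A+ mice above the Aw median. Nqo1, the quinone reductase, differed by 0.17 (SE 0.105, adjusted p = 0.438). The other 6, among them the glutathione genes Gclc, Gclm and Gsr and the thioredoxin genes Txnrd1, Srxn1 and Prdx1, lay between -0.05 and 0.04, all with adjusted p of 0.675 or more. The Prdx1 interval was wide (-0.30 to 0.33), that of Gsr narrow (-0.06 to 0.14).

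**Figure D2:**
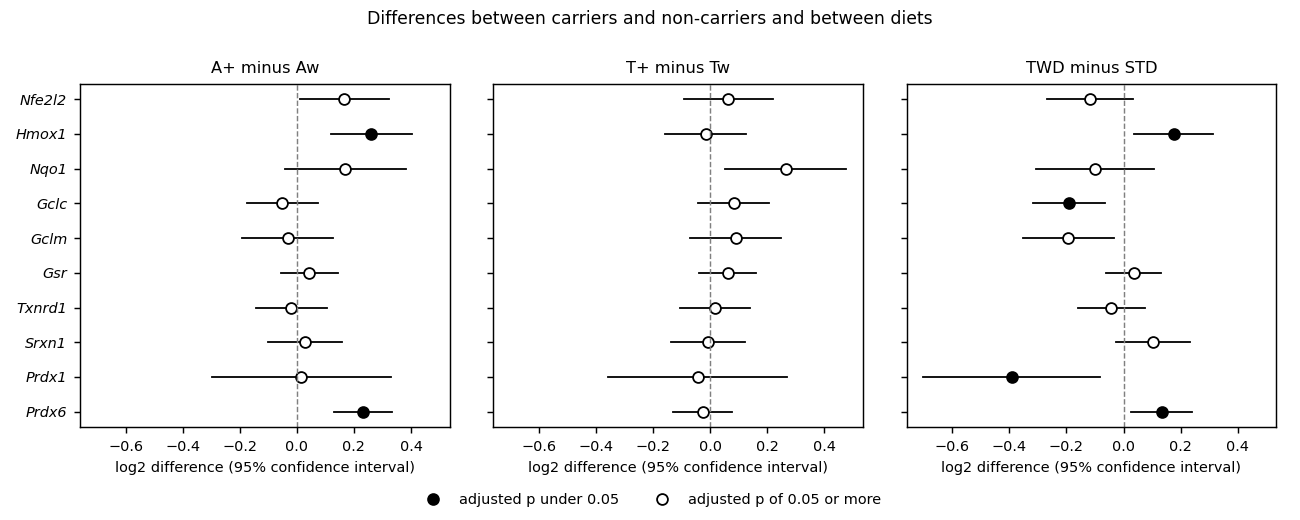
Log2 differences with 95% confidence intervals (x axis) of the 10 members (y axis) for A+ minus Aw, T+ minus Tw and TWD minus STD over all 45 mice, with filled circles for an adjusted p under 0.05. Hmox1 (0.26) and Prdx6 (0.23) are filled in the first panel, no member in the second, and Hmox1, Gclc, Prdx1 and Prdx6 in the third.

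Within batches Hmox1 differed by 0.25 (SE 0.111, adjusted p = 0.555) in batch 0 and by 0.26 (SE 0.107, adjusted p = 0.284) in batch 1, and it also missed the threshold after quantile normalization (0.25, adjusted p = 0.083) and with the choroid plexus level in the fit (0.25, adjusted p = 0.066). Prdx6 differed by 0.14 (SE 0.075, adjusted p = 0.646) in batch 0 and by 0.28 (SE 0.070, adjusted p = 0.0410) in batch 1. Both calls held whichever single mouse was left out, with 0.23 to 0.28 for Hmox1 and 0.21 to 0.26 for Prdx6.

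Microglial markers moved with this comparison. Of 12 microglia markers 10 rose in A+ mice, led by Trem2 (1.82, SE 0.099) and Tyrobp (1.72, SE 0.093), and 9 of 10 markers of plaque-associated microglia rose, led by Cst7 (4.13, SE 0.096) and Itgax (2.32, SE 0.098). The mean level of the 12 microglia markers ran from 9.67 to 10.51 in A+ and from 8.77 to 9.64 in Aw mice, without overlap. Since the level separated the genotypes, its relation to the members was taken within each: Prdx6 followed it in the 24 Aw mice (r = 0.88, rho = 0.90, 0.86 without the 2 mice farthest from the median) and in the 21 A+ mice (r = 0.85, rho = 0.86, 0.77 without 2), in each case with a permutation p of 1e-05, the smallest that 100000 permutations can give, and an adjusted p of 7.1e-05 over 50 relations. Within batches the Prdx6 r was 0.82 and 0.94 in Aw mice and 0.79 and 0.95 in A+ mice of batch 0 and 1. Hmox1 followed it in Aw mice (r = 0.85, rho = 0.88, 0.84 without 2, permutation p = 1e-05, adjusted p = 7.1e-05), with 0.87 and 0.85 in batch 0 and 1. In A+ mice Hmox1 gave r = 0.40 and rho = 0.50 (permutation p = 0.0718 for r, adjusted p = 0.18, 0.27 without 2), with 0.07 in batch 0 and 0.81 in batch 1. Members not called in A+ mice also passed against the level in the permutation test. In Aw mice these were Gclc (r = -0.67, adjusted p = 0.0011), Prdx1 (r = -0.60, adjusted p = 0.0070) and Gclm (r = -0.54, adjusted p = 0.0226). Their r in batch 0 was -0.39, -0.17 and 0.05. In A+ mice it was Srxn1 (r = 0.56, adjusted p = 0.0253). None of them passed in the other set of mice. The share of all genes that follow the level as closely was not computed, so these relations are not shown to be particular to the members. The part of microglia in the calls of Hmox1 and Prdx6 was not tested. Of the astrocyte markers 1 of 12 rose (Gfap, 1.44, SE 0.062) and of the oligodendrocyte markers 1 of 10 (Cldn11, 0.31, SE 0.085). No neuronal, endothelial, choroid plexus or red blood cell marker passed. The counts of all these marker lists stand beside 3.77% of all genes called in this comparison.

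**Figure D3:**
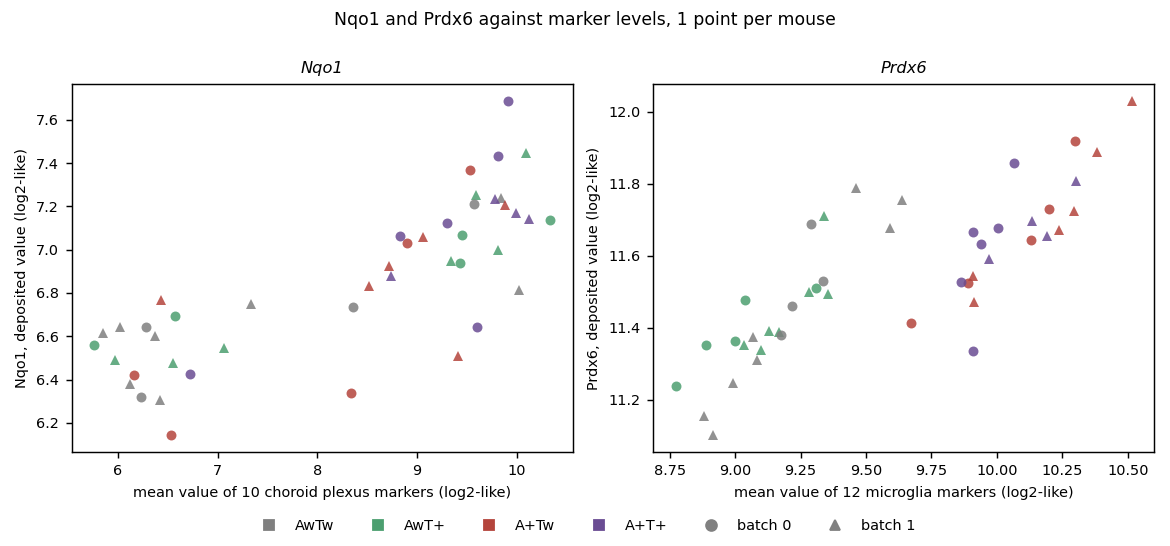
Nqo1 against the mean level of 10 choroid plexus markers (left) and Prdx6 against that of 12 microglia markers (right), all on the log2-like scale, 1 point per mouse, coloured by genotype and shaped by batch. Choroid plexus levels split at a gap between 7.33 and 8.34, and Prdx6 rises with the microglia level inside both the Aw and the A+ mice.

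Each transgenic genotype was also compared with AwTw on the same diet, all comparisons on a diet sharing the AwTw mice. No member passed in any of these 6 limma comparisons. On STD, all genes called made up 0% for AwT+, 0.925% for A+Tw and 1.32% for A+T+. An unadjusted p under 0.05 was reached by 0, 2 and 2 members, and by 380, 899 and 2278 of the 15897 genes. On TWD the background was 0% for AwT+, 0.824% for A+Tw and 0.730% for A+T+. There 1, 0 and 0 members had an unadjusted p under 0.05, as did 484, 827 and 1234 of the 15897 genes. Closest to the threshold was Prdx6 in A+T+/STD (0.39, SE 0.109, adjusted p = 0.0628), followed by Prdx6 in A+Tw/STD (0.32, SE 0.102, adjusted p = 0.231). Nqo1 in A+T+/STD, with 7.14, 7.69, 7.12 and 7.17 against 6.31 to 7.24 in AwTw/STD, differed by 0.55 (SE 0.225, adjusted p = 0.265). Hmox1 in A+Tw/STD differed by 0.34 (SE 0.140, adjusted p = 0.703) and Gclc in AwT+/TWD by 0.28 (SE 0.118, adjusted p = 0.865). For A+T+/STD the number of members past the threshold was 1 instead of 0 after quantile normalization, with the label prefix as a covariate, and without A+Tw/STD replicate 2 or AwTw/STD replicate 2. Leaving out the latter also gave 1 for A+Tw/STD.

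The A+ difference was then taken on each diet, a split added after the pooled result was seen. On STD Prdx6 rose by 0.34 (SE 0.074, adjusted p = 0.0043), the only member to pass of 10, against 2.07% of all genes. In batch 0 alone the difference was 0.15 (adjusted p = 1.00) and in batch 1 alone 0.39 (adjusted p = 0.057). On TWD Prdx6 differed by 0.13 (SE 0.071, adjusted p = 0.725), and 0 of 10 members passed against 1.53% of all genes. An unadjusted p under 0.05 was reached by 0 members and by 1277 of all genes. Hmox1 differed by 0.33 (SE 0.102, adjusted p = 0.0986) on STD and by 0.19 (SE 0.097, adjusted p = 0.631) on TWD. The change of the A+ difference from STD to TWD was -0.21 (SE 0.103, 95% interval -0.42 to -0.0028) for Prdx6 with an unadjusted p of 0.0471 and an adjusted p of 0.917, and -0.13 (SE 0.142) for Hmox1. It did not pass for any member, nor for any gene (0%, 412 with an unadjusted p under 0.05), so the diets are not shown to differ. Without AwTw/TWD replicate 5 a second member passed on STD.

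Tau carriers were compared with non-carriers in the same way. None of the 10 members passed (limma), against 0.0189% of all genes called. An unadjusted p under 0.05 was reached by 1 member and by 819 of the 15897 genes. The members' differences lay between -0.04 for Prdx1 and 0.26 for Nqo1, with a median of 0.04. Group means of Nqo1 were 7.28 for A+T+, 6.81 for A+Tw, 6.86 for AwT+ and 6.74 for AwTw on STD, while TWD mice had 6.95, 6.76, 6.90 and 6.64 in that order. Nqo1 ran from 6.42 over a median of 7.03 to 7.69 in 22 T+ mice and from 6.14 over 6.74 to 7.37 in 23 Tw mice, a difference of 0.26 (SE 0.105, unadjusted p = 0.0162, adjusted p = 0.932). The ranges of the 2 sets of mice overlapped almost wholly.

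Nqo1 was set against the choroid plexus markers. Of the T+ and A+ groups, A+T+/STD had 4 of 4 mice in the higher cluster, A+T+/TWD 5 of 6, A+Tw/STD 4 of 5, A+Tw/TWD 4 of 6, AwT+/STD 4 of 6 and AwT+/TWD 3 of 6, against 2 of 6 in both AwTw groups. All 10 markers had a positive difference in T+ mice, with a median of 0.99, and in A+ mice, with a median of 0.96, none of them past the threshold. Between the clusters Nqo1 differed clearly. It ran from 6.14 to 6.77 in the 17 mice of the lower cluster and from 6.34 to 7.69 in the 28 of the higher one. Most mice of the higher cluster lay above every mouse of the lower. Within the 28 mice of the higher cluster Nqo1 followed the level (r = 0.58, rho = 0.59, 0.43 without 2 mice, permutation p = 0.0012, adjusted p = 0.0055), with 0.66 in batch 0 and 0.51 in batch 1. Within the 17 mice of the lower cluster the relation did not pass (r = 0.13, rho = 0.10, -0.19 without 2 mice, permutation p = 0.628, adjusted p = 0.748), with -0.18 in batch 0 and 0.27 in batch 1. With the level in the fit the T+ difference of Nqo1 was 0.08 (SE 0.076), the A+ difference -0.01 (SE 0.076) and the A+T+/STD difference 0.15 (SE 0.163). For Nfe2l2 the A+ difference was then 0.08 (SE 0.073). Whether choroid plexus tissue carried these differences was not tested.

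The second question was how the members differ between diets. Over all genotypes 4 of 10 members passed, but so did 29.4% of all genes. Hmox1 and Prdx6 rose (background 16.0% higher), and Gclc, the catalytic subunit of glutamate-cysteine ligase and thus of the first step of glutathione synthesis, and Prdx1, a cytosolic peroxiredoxin, fell (background 13.4% lower). The members' median was -0.07 against -0.0014 over all genes.

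Prdx1 showed the largest difference. It ran from 8.81 over a median of 10.19 to 11.17 in the 24 TWD mice and from 9.60 over 10.55 to 11.17 in the 21 STD mice, and 20 TWD mice lay below the STD median, 5 of them below every STD mouse. The lowest, median and highest values on STD were 9.60, 10.72 and 11.16 in AwTw and 10.02, 10.23 and 10.72 in AwT+, with 9.94, 10.60, 10.52 and 10.72 in the A+T+ mice and 11.17, 10.22, 11.17, 10.13 and 9.94 in the A+Tw mice. On TWD they were 8.81, 10.26 and 10.54 for A+T+, 9.28, 10.18 and 10.57 for A+Tw, 9.58, 10.18 and 11.17 for AwT+, and 9.0, 9.89 and 10.73 for AwTw. All 4 TWD group means (9.90 in AwTw, 10.06 in A+T+, 10.14 in A+Tw and 10.25 in AwT+) lay below all 4 STD means (10.30 in AwT+, 10.44 in A+T+, 10.53 in A+Tw and 10.63 in AwTw), but each step between neighbours was smaller than the SDs. Prdx1 fell by 0.39 (SE 0.154, limma adjusted p = 0.0494).

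Gclc ran from 8.67 over a median of 9.33 to 9.89 on TWD and from 9.29 over 9.50 to 9.87 on STD, with 19 of 24 TWD mice below the STD median and 8 below every STD mouse. On STD the lowest, median and highest values were 9.36, 9.56 and 9.67 in AwTw and 9.46, 9.50 and 9.87 in AwT+, with 9.53, 9.40, 9.36 and 9.44 in A+T+ and 9.62, 9.31, 9.46, 9.51 and 9.29 in A+Tw. On TWD they were 9.15, 9.33 and 9.50 for A+T+, 8.95, 9.32 and 9.47 for A+Tw, 9.06, 9.51 and 9.89 for AwT+, and 8.67, 9.22 and 9.45 for AwTw. The lowest values thus came from TWD mice without the tau transgene, and no neighbouring pair in the order of group means, from 9.16 in AwTw/TWD to 9.56 in AwT+/STD, was further apart than the larger SD. Gclc fell by 0.19 (SE 0.062, adjusted p = 0.0236).

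Gclm, the modifier subunit of the same ligase, differed by -0.19 (SE 0.079, adjusted p = 0.0571), with 9 of 24 TWD mice below every STD mouse. Hmox1 rose by 0.18 (SE 0.069, adjusted p = 0.0482) with 19 of 24 TWD mice above the STD median, and Prdx6 by 0.13 (SE 0.052, adjusted p = 0.04998) with 22 of 24. Nfe2l2 differed by -0.12 (SE 0.074, adjusted p = 0.214), Nqo1 by -0.10 (SE 0.103), Srxn1 by 0.10 (SE 0.064), Gsr by 0.04 (SE 0.048) and Txnrd1 by -0.04 (SE 0.059), none past the threshold.

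The diet differences were larger in batch 1. In batch 1 alone Prdx1 fell by 0.72 (SE 0.231, adjusted p = 0.0217), Gclc fell by 0.29 (SE 0.098, adjusted p = 0.0242) and Prdx6 rose by 0.23 (SE 0.070, adjusted p = 0.0195), and Hmox1 differed by 0.23 (SE 0.102, adjusted p = 0.0728). In batch 0 alone Prdx1 differed by -0.05 (SE 0.134), Gclc by -0.05 (SE 0.070), Prdx6 by 0.03 (SE 0.079) and Hmox1 by 0.11 (SE 0.104), and no gene of the table passed (882 with an unadjusted p under 0.05). Prdx1 ran from 9.60 to 10.76 on STD and from 9.76 to 10.57 on TWD in batch 0, and from 9.94 to 11.17 and from 8.81 to 11.17 in batch 1. Whether the diet difference itself differs between the batches was not tested.

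**Figure D4:**
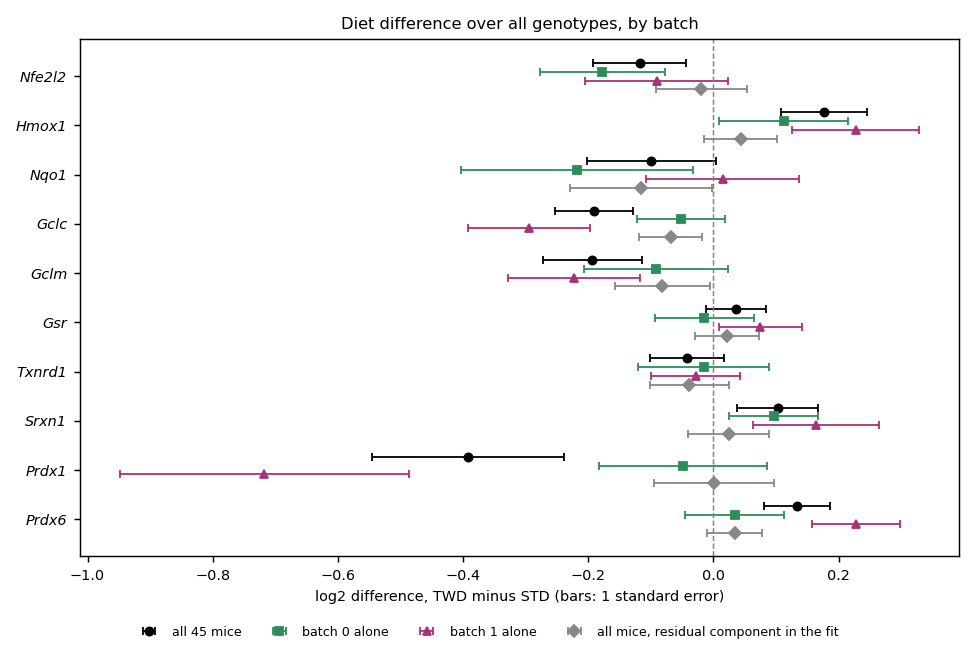
Log2 difference TWD minus STD with 1 standard error (x axis) of the 10 members (y axis) over all 45 mice, in batch 0 alone, in batch 1 alone, and over all mice with the residual component in the fit. Prdx1 stands at -0.72 in batch 1 and -0.05 in batch 0, and with the component, which itself differs by diet, in the fit every member lies within 0.12 of 0.

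A single axis of variation among mice moved with these members. The gene weights of this residual component are those of the first principal component of what genotype, diet and batch leave over in all genes, the members among them. Each mouse was then scored with these weights on its full values, not on the residuals, so the score can differ by diet, and it did. Scaled to an SD of 1 it averaged -0.45 on STD and 0.39 on TWD over all mice, -0.66 and 0.72 in batch 1, and -0.11 and 0.07 in batch 0. In A+ mice it averaged 0.21 and in Aw mice -0.19. Over the 45 mice it gave r = -0.84 with Prdx1 (rho = -0.75, -0.77 without the 2 farthest mice) and r = -0.73 with Gclc (rho = -0.77, -0.67 without 2). It gave r = 0.71 with Hmox1 (rho = 0.77, 0.66 without 2) and r = 0.69 with Prdx6 (rho = 0.70, 0.68 without 2). Each of these 4 had a permutation p of 1e-05, again the smallest possible, and an adjusted p of 7.1e-05 over 50 relations. The permutations moved mice freely across diets and batches, here and for the microglia and choroid plexus levels, so these p-values do not separate a relation from the differences that diet and batch make. The score is built from variation shared by all genes, so such relations are not particular to the members. The share of all genes that follow it as closely was not computed. In batch 0 and batch 1 the r was -0.13 and -0.92 for Prdx1, -0.65 and -0.75 for Gclc, 0.53 and 0.82 for Hmox1, and 0.41 and 0.79 for Prdx6. Gclm (r = -0.55, rho = -0.50, adjusted p = 9.4e-04) and Srxn1 (r = 0.47, rho = 0.46, adjusted p = 0.0055) followed it less closely. Nfe2l2 gave r = -0.40 (rho = -0.35, -0.30 without 2, permutation adjusted p = 0.0246), with 0.01 in batch 0 and -0.52 in batch 1. Nqo1, Gsr and Txnrd1 gave r between -0.08 and 0.16.

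Since the score itself differs by diet, a fit that holds it takes out whatever diet difference lies along it, and its values are no test of diet. With the score in the fit the diet difference was 0.0005 (SE 0.096) for Prdx1, -0.07 (SE 0.051) for Gclc, 0.04 (SE 0.058) for Hmox1 and 0.03 (SE 0.044) for Prdx6, and no gene of the table passed (1281 with an unadjusted p under 0.05). Without the 4 mice farthest from the median score (A+T+/TWD replicate 1, AwTw/TWD replicate 3, AwTw/STD replicate 4 and AwT+/TWD replicate 3, all of batch 1) they were -0.21 for Prdx1, -0.12 for Gclc, 0.12 for Hmox1 and 0.10 for Prdx6, and again no gene passed (3519 with an unadjusted p under 0.05). The TWD mice among these 4 had scores of 2.42, 2.30 and 1.67, and the STD mouse had -1.95. Leaving out mice picked on the score is thus no test of diet either. This setting was added after the data were seen. What the score stands for, and its part in the diet differences, was not tested. The A+ differences of Hmox1 (0.20, SE 0.053, adjusted p = 0.0151) and Prdx6 (0.19, SE 0.040, adjusted p = 0.0013) passed with the score in the fit.

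**Figure D5:**
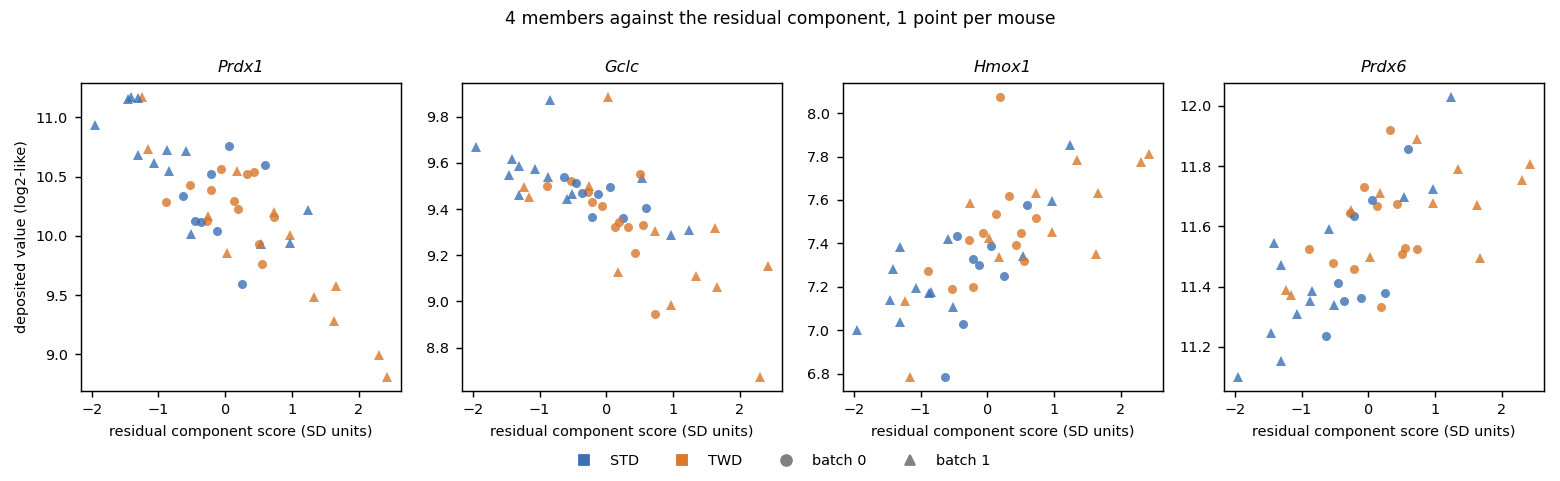
Log2-like values (y axis) of Prdx1, Gclc, Hmox1 and Prdx6 against the residual component score in SD units (x axis) in 45 mice, coloured by diet and shaped by batch. Prdx1 and Gclc fall and Hmox1 and Prdx6 rise along the score, and the extreme scores, from -1.95 to 2.42, belong to batch 1.

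Within genotypes, TWD was compared with STD in AwTw mice first. Gclc was the 1 member of 10 that passed, against 9.35% of all genes. Its values of 8.67, 9.22 and 9.45 (lowest, median, highest) on TWD stood against 9.36, 9.56 and 9.67 on STD, so that 4 of 6 TWD mice lay below every STD mouse. Gclc fell by 0.38 (SE 0.118, adjusted p = 0.0498). Prdx6 differed by 0.28 (SE 0.097, adjusted p = 0.0504) and Prdx1 by -0.73 (SE 0.295, adjusted p = 0.0701). The Gclc call was lost in 32 of the 45 fits that left out 1 mouse, with values from -0.44 without AwTw/TWD replicate 5 to -0.28 without AwTw/TWD replicate 3, and in batch 0 alone (2 mice per diet) the difference was -0.05.

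In the 3 transgenic genotypes no member and no gene passed for diet (0% in each, limma), and no member had an unadjusted p under 0.05. Over all genes that number was 1183 for AwT+, 705 for A+Tw and 409 for A+T+. The largest member differences were -0.28 for Gclm (SE 0.151) in AwT+, -0.41 for Prdx1 (SE 0.318) in A+Tw and, for the same gene, -0.40 (SE 0.331) in A+T+. The interaction of each transgenic genotype with diet, relative to AwTw, likewise passed for no member and no gene (0% in each, with 639, 352 and 1001 genes at an unadjusted p under 0.05 in AwT+, A+Tw and A+T+), and 1 member had an unadjusted p under 0.05: for Prdx6 in A+T+ the interaction was -0.36 (SE 0.145, limma adjusted p = 0.560). The genotypes are thus not shown to differ in their diet response.

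The wider pathway was read from 8 lists with 112 genes in the table. In A+ mice 6 of the 112 passed (5.36%, against 3.77% of all genes), all of them higher (against 3.11% of all genes). All of them were subunits of the phagocyte NADPH oxidase, which makes superoxide, or its regulator Rac2. All 6 measured genes of that list rose, among them Cyba at 0.84 (SE 0.126), Rac2 at 0.67 (SE 0.127) and Ncf1 at 0.61 (SE 0.069), and the list median was 0.64. These genes are also expressed by microglia, whose markers rose in the same mice, as given above. No gene of the other 7 lists passed. For the regulators and partners of Nrf2 the differences ran from -0.19 to 0.24, with 0 of 15 past the threshold. In T+ mice 0 of the 112 passed, against 0.0189% of all genes.

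For diet over all genotypes 48 of the 112 passed (42.9%, against 29.4% of all genes), 42 higher (against 16.0% of all genes) and 6 lower (against 13.4%). The median was 0.14, against -0.0014 over all genes, and the counts of the single lists below stand against the same shares. Among the Nrf2 regulators 3 of 15 passed: Sqstm1, the autophagy receptor p62 that binds Keap1, rose by 0.31 (SE 0.076), Dpp3 rose by 0.20 (SE 0.060), and Bach1, the repressor that competes for the same elements, fell by 0.31 (SE 0.104). Of the glutathione peroxidases and transferases 10 of 22 rose, led by Gpx4 (0.39, SE 0.125), Gstp1 (0.38, SE 0.104) and Mgst3 (0.36, SE 0.096), and none fell. In glutathione synthesis and recycling 4 of 15 rose, Glrx5, Gss, Slc3a2 and Chac1, by 0.19 to 0.31. Thioredoxins and other peroxiredoxins had 8 of 18 higher, among them Prdx5 (0.35, SE 0.095) and Prdx2 (0.33, SE 0.103), and Sesn3 lower (-0.50, SE 0.148). So Prdx1 fell while Prdx2 and Prdx5 rose. Superoxide dismutases and related genes had 4 of 7 higher, led by Park7 (0.38, SE 0.099) and Sod1 (0.34, SE 0.094), with Pon2 lower. Genes of NADPH supply had 3 of 9 higher (Taldo1 at 0.38, Pgls at 0.36 and Tkt at 0.26) and Me1 lower (-0.20). Heme, quinone and aldehyde genes had 9 of 20 higher, led by Blvrb (0.36, SE 0.113), and 2 lower, among them Ugdh (-0.28, SE 0.098). Of the NADPH oxidase genes Cyba and Rac2 rose. As for the members, none of these passed in batch 0 alone, where no gene of the table did.

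Among cell type markers, beside the 29.4% of all genes called, the diet comparison called 8 of 12 for microglia (7 higher), 0 of 10 for plaque-associated microglia, 7 of 12 for astrocytes (3 higher), 4 of 10 for oligodendrocytes (all higher), 5 of 10 for neurons (2 higher), 3 of 10 for endothelium (2 higher), and none for choroid plexus or red blood cells. The part of these cell types in the diet differences of the members was not tested. In AwTw mice alone 20 of the 112 pathway genes passed for diet (17.9%, against 9.35% of all genes), 17 higher and 3 lower. Over the whole table the 1487 calls of that comparison became 0 after quantile normalization, without the mean trend and with the label prefix, and 1 with only the groups compared.

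Correlations between members ran in both directions. Over the 45 mice, a description with no test since mice share genotype, diet and batch, the highest correlation was r = 0.69 between Hmox1 and Prdx6, followed by 0.58 between Nfe2l2 and Nqo1 and 0.56 between Gclc and Gclm, the 2 subunits of 1 enzyme. The lowest were -0.53 between Hmox1 and Gclc and -0.49 between Gclc and Prdx6. Nfe2l2 and Hmox1 gave -0.02. The genes of the whole table most like each called member were Mvd, Gngt2 and Ubtd1 for Hmox1 (r = 0.81 for each), Kcnd3 (0.89), Aak1 (0.87) and Gpd2 (0.87) for Gclc, Ppt1, Selenof and Pdia3 for Prdx1 (all 0.94), and S100b (0.87), Lamp1 (0.86) and Lgmn (0.85) for Prdx6.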

How the data were processed

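Hippocampal RNA of 45 mice was sequenced from stranded polyA libraries as single reads. As the study's methods and labels state, the authors trimmed reads with Trimmomatic 0.38, removed ribosomal and mitochondrial reads with Bowtie2 2.2.3, quantified transcripts with kallisto 0.44.0 on mm10, kept genes with a mean count above a minimum, and deposited log2-like values made with the variance-stabilizing transformation of DESeq2 1.22.2 and removeBatchEffect of limma 3.38.3. Batch means are equal for every gene in the table, so batch stayed in each fit. Raw counts were not used here. The study's methods give a minimum read depth for the samples, but the depth of each mouse is not known.

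Groups and batch came from the labels. The members, gene lists, marker lists and comparisons were chosen with earlier results of these data known. Genes were fitted with a limma 3.58.1 linear model (R 4.3.3) over the 8 groups with batch as covariate, with moderated variances that follow the mean. Diet over all genotypes came from a model in which genotype, diet and batch add up. This replaced the authors' count test. Tests were two-sided, with the Benjamini-Hochberg adjustment taken across the 15897 genes and 0.05 as threshold. Of 19 comparisons 3 were added after the data were seen. All members are named, and of each list at most 4 called genes per comparison by size of difference, apart from 1 gene that is not reported here. Correlations (scipy 1.17.1) used 100000 permutations, were two-sided, and were adjusted over 50 relations. The fits were tested on simulated data with noise drawn independently for each gene. That test therefore does not cover variation shared among genes. Alternatives were 11 other settings and leaving out each of the 45 mice. Among the settings, leaving out the 4 mice farthest on the residual component was added after the data were seen.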

Additional observations from a re-analysis of the deposited data

Results flagged for a closer look

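Of the 80 gene-by-group sets of 4 to 6 mice, 9 had a mouse that stood apart from the rest of its group by Dixon's criterion, where chance alone flags about 1 in 20 sets. Prdx1 had 3 of them, each with 1 low mouse: 9.60 in AwTw/STD replicate 6, 9.28 in A+Tw/TWD replicate 2 and 8.81 in A+T+/TWD replicate 1, the last also the mouse with the highest residual component score. Gclc had 1 high mouse (9.87, AwT+/STD replicate 2) and 1 low mouse (8.95, A+Tw/TWD replicate 3). Prdx6 had 1 low mouse (11.24, AwT+/STD replicate 3) and 1 high mouse (11.71, AwT+/TWD replicate 2). Nqo1 was highest in A+T+/STD replicate 2 (7.69, against 7.17 for the next mouse), and Txnrd1 in AwTw/TWD replicate 6 (10.01, against 9.61 for the next).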

How the results depend on the processing

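Limits: depth per mouse is unknown, the values had batch removed before deposit, and the count test of the study could not be repeated on them. Each mouse was a separate animal on 1 diet, so no paired analysis applied. The labels carry no replicate numbers, and the numbers used here only follow the order of the samples. Of the counts of called members in 19 comparisons under 11 alternatives, 174 of 200 stayed within 1.5 times the value reported. Most of these counts were 0 and stayed 0, so this share says little about the calls. Where members were called, the count held in 6 of 10 alternatives for A+ against Aw and in 8 of 10 for A+ on STD. It held in 3 of 10 for diet over all genotypes and in 0 of 11 for diet in AwTw.

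For A+ against Aw mice 2 members passed, but 0 in batch 0 alone and 1 each in batch 1 alone, after quantile normalization and with the choroid plexus level in the fit. On STD alone the 1 call became 0 in either batch alone, and 1 to 2 members passed when a mouse was left out. For A+T+ against AwTw on STD 1 member passed after quantile normalization and with the label prefix, and 0 to 1 when a mouse was left out, as for A+Tw on STD. For diet over all genotypes the 4 calls became 2 without the batch covariate, after quantile normalization and without the mean trend, 1 with the label prefix, and 0 in batch 0 alone, with the residual component and without the 4 mice farthest on it. The component itself differs by diet, so neither setting built on it is a test of diet. Leaving out 1 mouse gave 1 to 5 calls for diet over all genotypes. There the Prdx1 difference was 0.0005 with the residual component in the fit (sign turned), and leaving out 1 mouse ended the call of Prdx6 in 32, Hmox1 in 29, Prdx1 in 25 and Gclc in 0 of 45 fits. For diet in AwTw the 1 call became 2 without the batch covariate, in batch 1 alone, for genes above the 25th percentile of mean and with the choroid plexus level, and 0 under the other 7 alternatives, with 0 to 4 when a mouse was left out. Over all genes, A+ calls numbered 184 to 1028 under the alternatives against 599, diet calls 0 to 6498 against 4678, and diet calls in AwTw 0 to 3982 against 1487.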
